A study of Mus musculus with 27 samples.

Results

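Microglia from germ-free (GF) mice were compared with microglia from mice given an antibiotic cocktail (ABX) at day 3 after intracerebral hemorrhage (ICH), a bleed into the brain that was induced with collagenase. The comparison holds 3 GF libraries and 3 ABX libraries, chosen by their labels alone, of 27 libraries in the series. All mice were labelled as wild type. The GF libraries carry the treatment labels germ-free condition and collagenase, and the ABX libraries carry antibiotic cocktail and collagenase. The other groups of the series are specific pathogen-free (SPF) mice at day 3, all 3 conditions at day 7 after collagenase, and all 3 conditions after a saline sham operation labelled day 7, with 3 libraries in each of the 9 groups. Microglia were sorted from tissue around the hematoma, and cDNA was made with a kit for very small amounts of RNA, which amplifies messages by PCR. The labels do not say whether the 3 libraries of a group come from separate animals, so p-values below measure only the spread between these libraries. They also give no length of the antibiotic treatment, no age and no check of the gut flora. The comparison sets 2 ways of removing gut bacteria side by side: germ-free mice never carried a flora, while antibiotics deplete one that was already present.

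Microglia are the resident macrophages of the brain. In health they express a set of homeostatic genes, among them receptors for purines and fractalkine, and after a bleed they divide, take up red cells and debris, and handle the iron released from heme. Gut bacteria are known to influence microglia through short-chain fatty acids and other products, and microglia of germ-free mice are known to have altered maturation. Neutrophils and monocytes enter the brain from blood in the first days after a hemorrhage, so a sort of microglia from this tissue can hold some of their RNA.

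Levels are CPM, counts relative to the library's total scaled by edgeR's TMM factors, and the values of each group are given in the order of replicates 1, 2 and 3. Differences are log2 fold changes, GF minus ABX, ± SE. The libraries held 52702474 to 56667100 counts in GF and 55672133 to 79090595 in ABX. More genes had at least 1 count in GF (16853, 15411 and 16931) than in ABX (14146, 15252 and 14924), and mitochondrial transcripts made up less of the counts in GF (0.878%, 0.924% and 0.955%) than in ABX (1.12%, 1.83% and 2.19%). Neither measure overlapped between the groups, and for both the exact permutation test gave p = 0.1, the smallest p that 3 against 3 libraries allow (two-sided). Transcripts of high GC content were somewhat better represented in GF, with a level in the highest minus the lowest GC quintile of abundant genes of 1.34, 0.98 and 1.52 log2 units in GF against 1.05, 0.53 and 0.95 in ABX (exact permutation p = 0.2). Over 1649 genes with a mean of at least 100 CPM, the log2 fold change and GC content had a Spearman correlation of 0.350 across genes, which are not independent replicates. Correlations between libraries were 0.828 to 0.874 within GF, 0.786 to 0.792 within ABX and 0.784 to 0.821 between the groups.

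**Figure D1:**
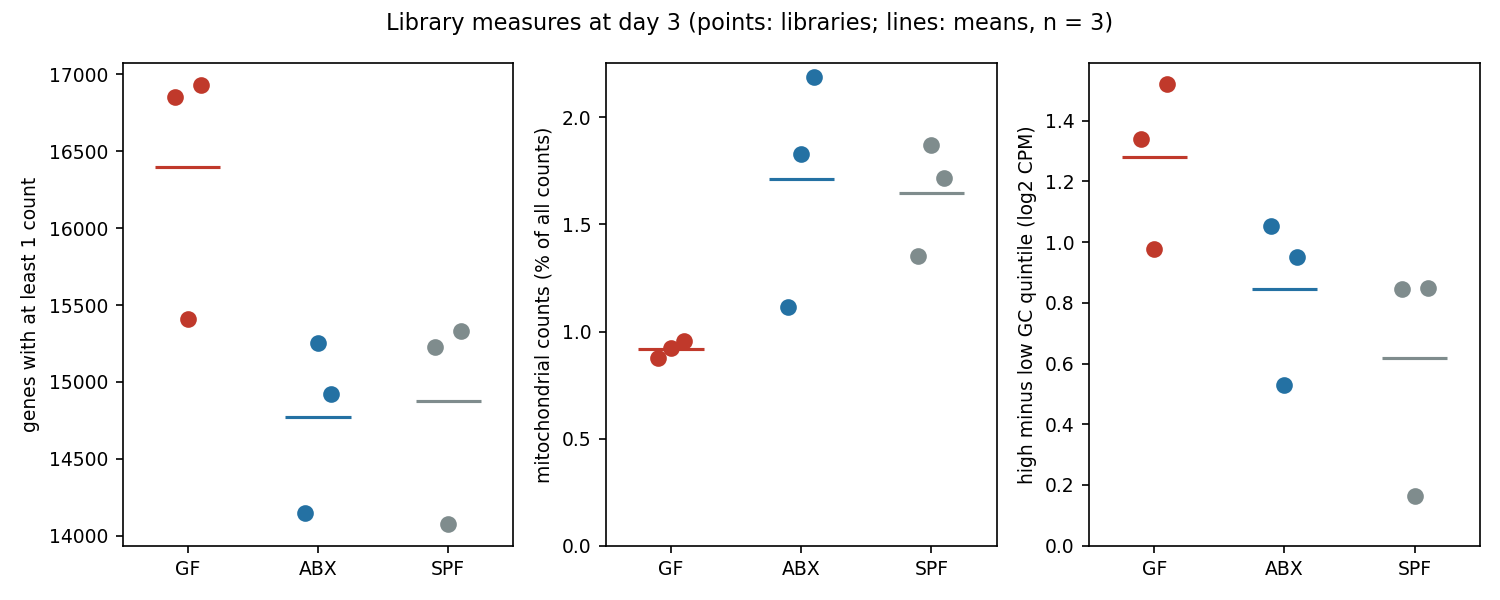
Genes with at least 1 count, percent of counts from the mitochondrial genome, and the log2 level of the highest minus the lowest GC quintile of abundant genes, in each library at day 3 (points) with the mean of 3 libraries (lines). The GF libraries lie above the ABX libraries in detected genes and below them in mitochondrial percent, without overlap; the first axis does not start at 0.

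No gene passed an adjusted p of 0.05 in edgeR's quasi-likelihood test, among 17573 tested, in either direction (0% called each way). At an unadjusted p under 0.05, 629 genes (3.58%) were higher and 125 (0.711%) lower in GF. Other tools on the same counts made calls: DESeq2 called 556 higher (3.43%) and 111 lower (0.685%), limma voom with quality weights 173 higher (0.984%) and 15 lower (0.0854%), and an edgeR fit of the 6 libraries alone called 0 and 0, with 435 and 241 at an unadjusted p under 0.05. Most of those calls were genes with no count in a whole group. All 3 ABX libraries were at 0 in 529 of DESeq2's 667 calls and all 3 GF libraries in 109, and for limma voom these numbers were 126 and 8 of 188. Among all 17573 genes tested, 1463 were at 0 in the ABX libraries alone and 459 in the GF libraries alone. A single call of either tool, Stmn1, had a mean log2 CPM of at least 4. As a description that needs no model, all 3 GF libraries lay above all 3 ABX libraries in 1191 genes (6.78%) and below them in 749 (4.26%). Among the 7083 genes with a mean log2 CPM under 0 these shares were 8.27% and 1.82%, so sparse genes as a whole leaned toward GF. Among the 1656 genes with a mean of at least 100 CPM the balance was the other way, with 74 (4.47%) above and 124 (7.49%) below. The gene groups that follow are read against these shares.

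**Figure D2:**
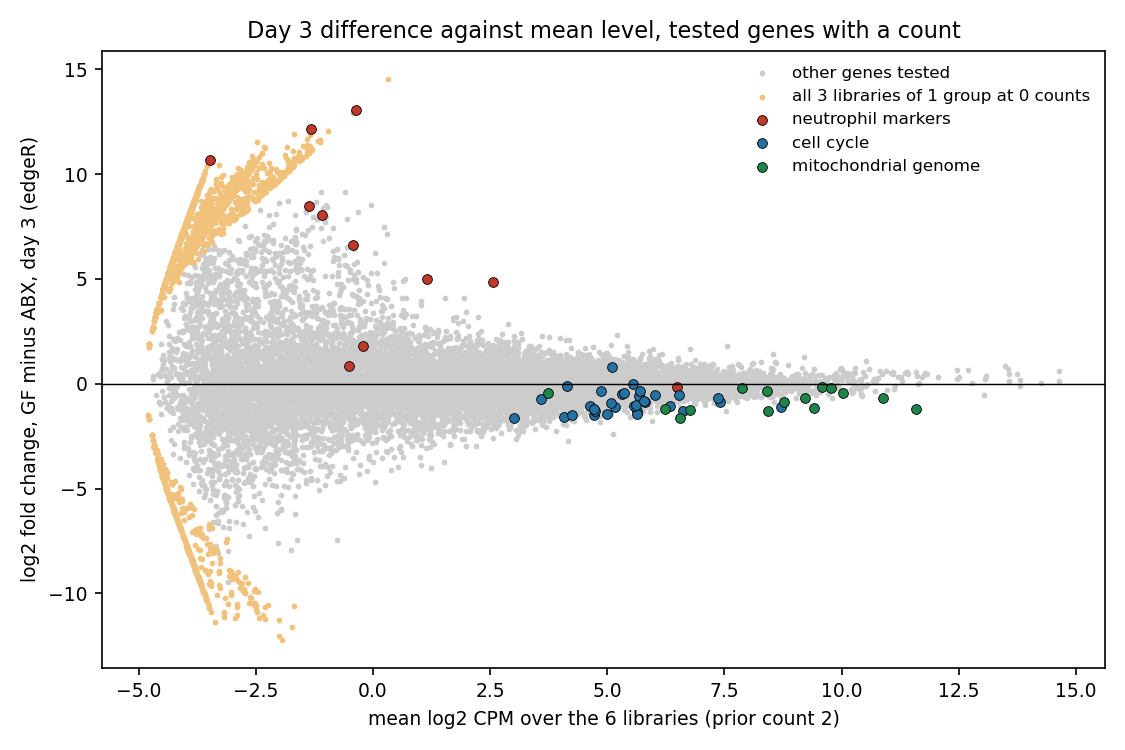
Log2 fold change, GF minus ABX at day 3, against the mean log2 CPM over the 6 libraries (prior count 2) for tested genes with a count; each point is a gene. Points in the tan arms are genes with all 3 libraries of 1 group at 0; neutrophil markers (red) lie above 0 with 1 exception, and cell cycle genes (blue, 31 of 32) and mitochondrial genome genes (green, 15 of 15) lie below 0.

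The gene with the smallest p was Chil3, which encodes a chitinase-like protein secreted by neutrophils, monocytes and alternatively activated macrophages (chromosome 3, 106147554 to 106167564, minus strand, GRCm38). It measured 22.9, 52.7 and 78.4 CPM in GF, from 1313, 3530 and 4438 counts. All 3 ABX libraries held 0 counts, and the SPF libraries at the same day held 0, 0 and 0.0333 CPM. With 3 counts in place of 0 in each ABX library, Chil3 was at least 1285-fold higher in GF. Its p was 0.00118 before adjustment and did not pass after it in edgeR's test, while limma voom called it with an adjusted p of 0.00123 and DESeq2 with 2.1e-28. In the other alternatives run its adjusted p stayed above 0.05, up to 1.

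Several neutrophil genes went with Chil3. Of 11 tested neutrophil markers, 7 were higher in GF without overlap and 0 lower, where 6.78% of all genes were higher without overlap. Their median log2 fold change was 6.62, and 6.47 with genes at 0 in a group set to their bound, against 0 over all genes tested. Without GF replicate 3 the median was 4.36 and without ABX replicate 3 it was 8.99. Mmp9, a gelatinase stored in neutrophil granules (chromosome 2, 164940780 to 164955850, plus strand), measured 11.8, 21.7 and 22.1 CPM in GF and 0 in every ABX and SPF library at day 3, at least 464-fold higher. S100a8, a subunit of the calcium-binding protein calprotectin that neutrophils hold in large amounts (chromosome 3, 90668978 to 90670035, plus strand), measured 20.8, 55.9 and 87.2 CPM in GF against 0.113, 4.99 and 0.505 in ABX and 2.17, 0 and 6.56 in SPF. The lowest GF library lay above the highest ABX library, and the difference was 4.87 ± 2.35 (edgeR unadjusted p = 0.049, adjusted p = 1). Its partner S100a9 measured 12.8, 17.3 and 32.2 against 0, 1.65 and 0.26 CPM. Retnlg, a resistin-like protein of mature neutrophils, measured 10.6, 7.43 and 6.5 against 0, 0 and 0.245 CPM.

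Cxcr2, the chemokine receptor that draws neutrophils out of blood, measured 1.86, 7.89 and 6.75 CPM in GF and 0, 0.057 and 0 in ABX. Cxcl2, a ligand of that receptor, measured 4, 11.9 and 12 CPM in GF and 0, 0.114 and 0 in ABX. So both the receptor and a ligand were near 0 in ABX and present in all GF libraries. The spread within GF was wide for genes of immature neutrophils. Camp, the antimicrobial peptide cathelicidin, measured 0.627, 7.12 and 21.6 CPM against 0 in all ABX libraries, and Ngp, another granule protein, 0.139, 0.328 and 78 against 0, 0.0998 and 0.115. Ltf, lactoferrin, was at 0, 0 and 10.6 CPM in GF and at 0 in all ABX libraries, so its difference came from GF replicate 3 alone. Csf3r, the receptor for granulocyte colony-stimulating factor, which microglia express too, overlapped, at 99, 70.1 and 114 CPM in GF and 196, 59.2 and 59.2 in ABX. The summed level of the 11 markers also overlapped, from 167 to 394 CPM in GF and from 66.0 to 197 in ABX. Csf3r made up most of the ABX sums, and 196 of the 197 CPM in ABX replicate 1, the highest ABX library. The granule genes Lcn2 (0.84 ± 2.64) and Mmp8 (1.82 ± 3.18) overlapped too. Ly6g and Elane were too low to be tested.

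Of 12 monocyte markers, 3 (25%, against 6.78% of all genes) were higher without overlap, Chil3 and Ly6c2 among them. Fn1 alone was lower (8.33%, against 4.26% of all genes). The list's median was 1.53, or 0.66 without GF replicate 2. Ly6c2, a surface marker of inflammatory monocytes, measured 3.78, 24.9 and 5.41 CPM in GF and 1.68, 1.75 and 1.18 in ABX. Ccr2, the receptor that brings monocytes into tissue, overlapped, at 1.55, 38.1 and 25.4 CPM in GF and 0.596, 14.8 and 6.75 in ABX. Their summed level ran from 57.9 to 309 CPM in GF and from 66.4 to 159 in ABX. In a bulk sample, more cells of a type and more RNA per cell cannot be told apart, and whether these genes come from neutrophils and monocytes in the sort or from microglia was not tested.

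**Figure D3:**
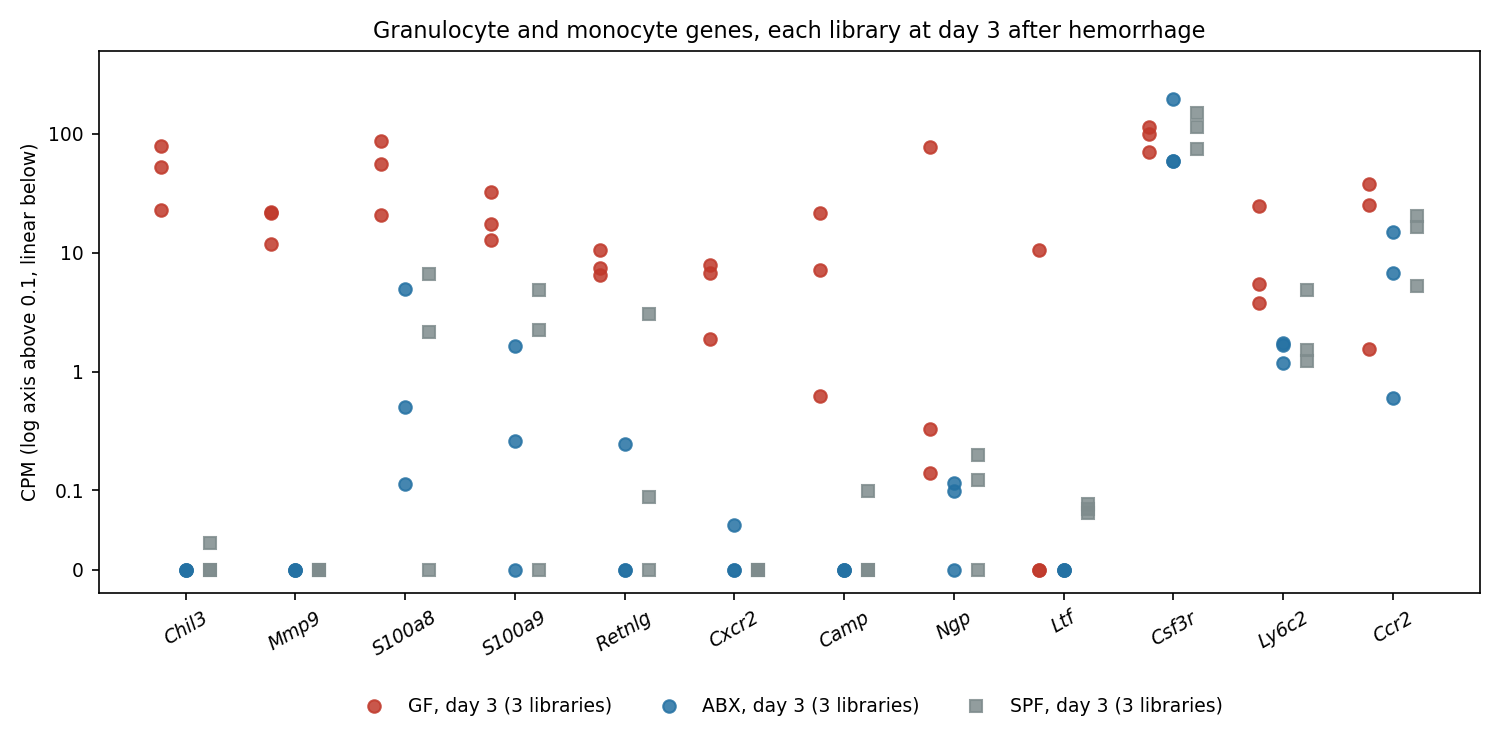
CPM of granulocyte and monocyte genes in each library at day 3 (log axis above 0.1, linear below); red circles are GF, blue circles ABX and grey squares SPF. For Chil3, Mmp9 and Camp all ABX points lie at 0, and for S100a8, S100a9, Retnlg and Cxcr2 the GF points lie above all ABX points, while Csf3r and Ccr2 overlap.

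The same granulocyte genes were compared in the other groups that pair GF with ABX. At day 7 S100a8 measured 1131, 1512 and 419 CPM in GF and 0, 0.198 and 34.5 in ABX, a difference of 6.46 ± 2.53 (edgeR adjusted p = 0.12). S100a9, Retnlg and Chil3 likewise did not overlap at day 7 and were higher in GF. In the sham groups S100a8 measured 2.98, 2.16 and 45.9 CPM in GF and 16.2, 26.1 and 0 in ABX, a difference of 0.27 ± 2.00, with the groups overlapping. Chil3 measured 0.645, 0.697 and 22.7 CPM in GF sham and 11.4, 1.87 and 0 in ABX sham. The day 3 difference of Chil3 exceeded that in sham by 13.69 ± 4.20 log2 units on the fitted scale, which is no bound because of the zeros, and did not pass (edgeR unadjusted p = 0.00357, adjusted p = 0.717). For S100a8 the interaction with sham was 4.60 ± 2.96 (edgeR adjusted p = 0.893).

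Genes of the cell cycle had a lower summed level in GF without overlap, and none passed the test. Of 32 tested, 31 had a log2 fold change below 0, and 14 were lower without overlap and 0 higher, where 4.26% of all genes and 7.49% of abundant genes were lower without overlap. Their median was −0.95, against 0 over all genes and −0.03 over the abundant ones, and 1 of 32 had an unadjusted p under 0.05. The summed level was 1225, 1862 and 1500 CPM in GF and 2323, 2939 and 3211 in ABX, with 2623 to 2875 in SPF. The SPF libraries therefore lay within the ABX range and above all GF libraries.

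Stmn1, a regulator of microtubules that is abundant in dividing cells (chromosome 4, 134468320 to 134473843, plus strand), measured 265, 334 and 270 CPM in GF, 377, 729 and 786 in ABX and 632, 474 and 592 in SPF. The difference was −1.12 ± 0.50, with a 95% interval of −2.15 to −0.09 (edgeR unadjusted p = 0.0337, adjusted p = 1). It was called by limma voom (adjusted p = 0.0372) and by no other alternative, where its adjusted p reached 1. Genes of DNA replication were among the 14. Pcna, the sliding clamp of the replication fork, measured 109, 152 and 137 CPM in GF and 194, 172 and 267 in ABX. Mcm4, a part of the replicative helicase, measured 13, 19.6 and 14.8 against 40.6, 46.7 and 46.1. Rrm1 and Rrm2, the subunits of the enzyme that makes deoxynucleotides, were at 27 to 38.4 and 35.9 to 50.6 CPM in GF and at 48.4 to 107 and 56.3 to 102 in ABX.

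Among the 14 were also genes of mitosis. Cdk1, the kinase that drives entry into mitosis, measured 46.4, 103 and 47.8 CPM in GF and 161, 197 and 124 in ABX. Top2a, which untangles chromosomes, measured 21.9, 44.5 and 40 against 53.8, 74.3 and 86.4, and Birc5, a part of the chromosomal passenger complex, 43.9, 75.8 and 52.7 against 85.7, 132 and 143. Ccna2, Ube2c, Aurka, Bub1, Bub1b and Kif11, which act in cyclin control, protein destruction at mitosis and spindle function, were also lower without overlap. Other mitotic genes overlapped, among them Plk1, Ccnb1, Ccnb2, Cdc20, Aurkb, Cenpe, Cenpf and Tpx2. Mcm7 alone had a log2 fold change above 0. The intervals of single genes were wide, such as −5.12 to 2.54 for Cdk1. They rest on the spread over all 27 libraries, not on that of the 6 alone. The common biological coefficient of variation was 1.54 over the 27 and 1.04 over the 6. These values cover different genes, since the filter kept 17573 and 13654. In this fit neither the size nor the sign of most members' differences is fixed on its own.

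The cell cycle difference had the opposite sign in sham mice. There the list's median was 1.18, and the summed level was 1545, 362 and 703 CPM in GF and 365, 358 and 348 in ABX, where GF replicate 2 lay within the ABX range. The sham libraries held 10325, 11925 and 18408 detected genes in GF and 14979, 16291 and 15357 in ABX. The part of library quality in the sham difference was not tested. Stmn1 measured 236, 132 and 218 CPM in GF sham and 46.5, 74.8 and 68.1 in ABX sham, so the groups did not overlap and GF was higher. Its day 3 difference was 2.75 ± 0.71 log2 units below the sham difference, an interaction that did not pass (−2.75, edgeR unadjusted p = 0.000694, adjusted p = 0.717). No gene passed for this interaction in edgeR (0% each way), with 727 higher (4.14%) and 417 lower (2.37%) at an unadjusted p under 0.05, against 423 (2.61%) and 202 (1.25%) calls by DESeq2 and 3 (0.0171%) and 1 (0.00569%) by limma voom. The shams are labelled day 7, so injury and day cannot be told apart in it. Leaving out GF sham replicate 3 gave 12 higher and 1 lower in edgeR. At day 7 the summed level was 1950, 2151 and 1510 CPM in GF and 3317, 1575 and 2483 in ABX, which overlapped, while the list's median was −3.20, in libraries where GF held 9185 to 11043 detected genes.

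**Figure D4:**
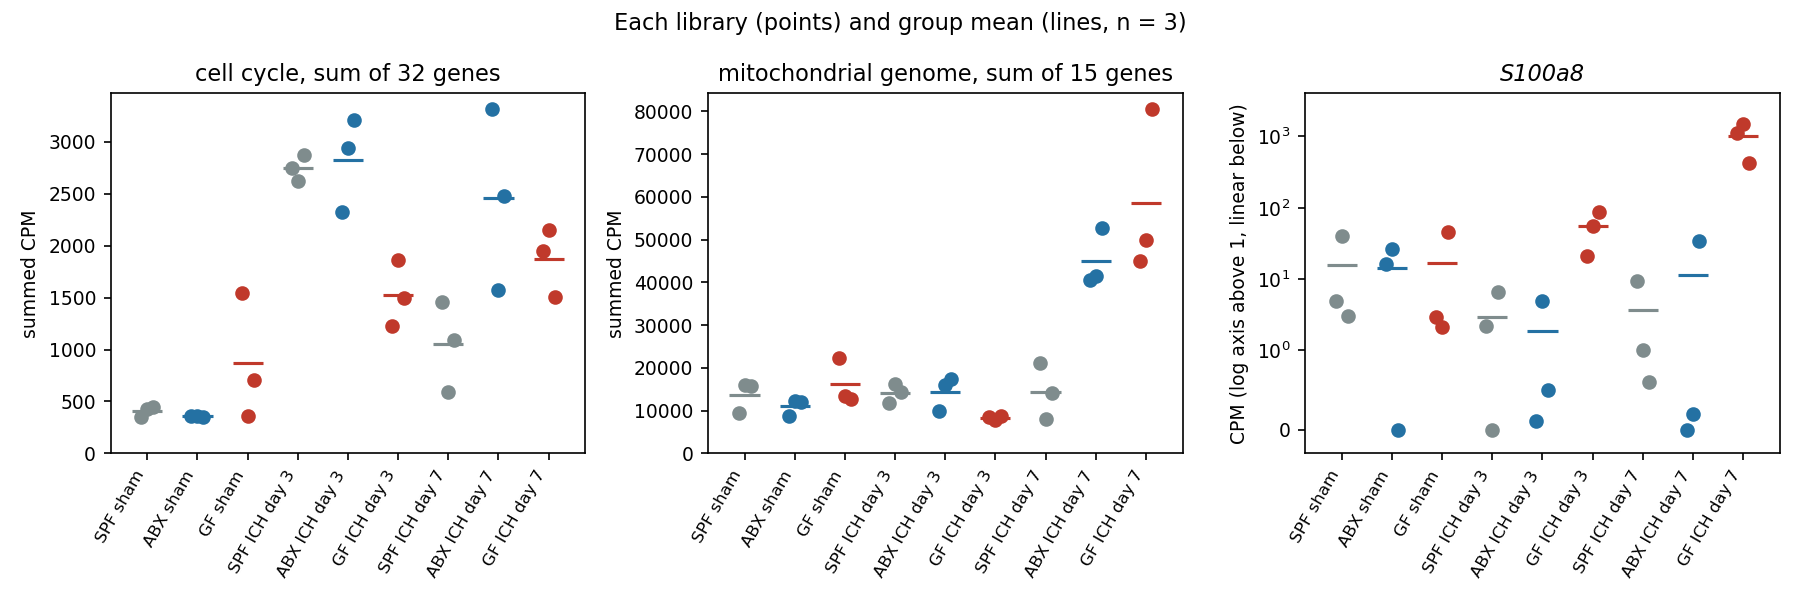
Summed CPM of 32 cell cycle genes and of 15 mitochondrial genome genes, and CPM of S100a8 (log axis above 1, linear below), in each library of the 9 groups, with group means of 3 libraries as lines. At day 3 the GF libraries lie below the ABX and SPF libraries in both sums; for S100a8 they lie above both, and at day 7 the GF libraries lie higher again.

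Transcripts of the mitochondrial genome, which encodes parts of the respiratory chain and the ribosomal RNAs of the organelle, had a lower summed level in GF without overlap, and none passed the test. All 15 genes tested had a log2 fold change below 0, with a median of −0.68. Of them, 9 were lower without overlap, as were 4.26% of all genes and 7.49% of abundant genes. At an edgeR unadjusted p under 0.05, 6 were lower, as were 0.711% of all genes. Their summed level was 8440, 7773 and 8854 CPM in GF, 9889, 15946 and 17489 in ABX and 11815 to 16242 in SPF. The ABX library nearest to GF was replicate 1.

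The difference was seen in genes of several complexes. mt-Nd6, a subunit of complex I and the gene encoded on the light strand, measured 58.8, 61.3 and 47 CPM in GF and 102, 150 and 263 in ABX (−1.62 ± 0.65, edgeR unadjusted p = 0.0188). mt-Nd2, mt-Nd4 and mt-Nd5, also of complex I, had differences of −1.23 ± 0.50, −0.87 ± 0.37 and −1.30 ± 0.64. mt-Co1, the catalytic subunit of complex IV, measured 1480, 1417 and 1611 against 2031, 2428 and 2640 (−0.66 ± 0.40), and mt-Cytb of complex III measured 965, 870 and 885 against 1345, 1278 and 1031. The large ribosomal RNA mt-Rnr2 had the smallest p of the list (−1.21 ± 0.36, edgeR unadjusted p = 0.00286), yet it overlapped, at 2199, 1925 and 2346 CPM in GF and 2101, 5509 and 7355 in ABX. ABX replicate 1 stood with the GF libraries for both ribosomal RNAs, since mt-Rnr1 measured 466, 449 and 534 against 453, 1299 and 1473.

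Nuclear genes of oxidative phosphorylation had a median of −0.09 over 35 genes, with 2 lower without overlap (5.71%, near the 4.26% of all genes) and 0 higher. Without ABX replicate 2 their median was 0.23, and without ABX replicate 1 it was −0.31. The 2 genes were Sdhc, a membrane anchor of complex II (159, 131 and 119 CPM in GF, 238, 232 and 200 in ABX), and Uqcrc2, a core protein of complex III (119, 118 and 124 against 154, 163 and 163). In sham mice the mitochondrial median was 0.61 and at day 7 it was 0.42. The share of mitochondrial counts is itself a measure of library quality, and the number of detected genes likewise did not overlap between the groups, while the GC measure did. With offsets for GC content the list's median was −0.41, and 7 genes were lower without overlap. The part of RNA or library quality in this result was not tested.

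Homeostatic microglia genes overlapped in their summed level, at 44696 to 82254 CPM in GF and 34696 to 53012 in ABX. Of 22 tested, 17 had a log2 fold change above 0, 3 (13.6%, against 6.78% of all genes) were higher without overlap and 0 lower, and 2 had an unadjusted p under 0.05, with a median of 0.39, or 0.18 without GF replicate 1 and 0.62 without ABX replicate 1. Cst3, cystatin C, an inhibitor of cysteine proteases and a prominent transcript of resting microglia (chromosome 2, 148871722 to 148875692, minus strand), measured 21539, 10319 and 15448 CPM in GF, 9085, 10255 and 7282 in ABX and 9673, 8158 and 7522 in SPF. The lowest GF library barely exceeded the highest ABX library. The difference was 0.83 ± 0.26, with a 95% interval of 0.30 to 1.36 (edgeR unadjusted p = 0.00369, adjusted p = 1). Siglech, a sialic acid receptor that sets microglia apart from other macrophages (chromosome 7, 55768178 to 55778925, plus strand), measured 1663, 1104 and 1114 against 839, 877 and 633 CPM (0.72 ± 0.32, edgeR unadjusted p = 0.034). Cx3cr1, the fractalkine receptor, measured 5290, 3435 and 4331 against 3074, 2831 and 3404 CPM, with a narrow gap between the groups.

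The purinergic receptor P2ry12, a sensor of extracellular nucleotides, overlapped at 3554, 2283 and 2142 CPM in GF and 2480, 2163 and 1173 in ABX (0.46, 95% interval −0.27 to 1.19). Tmem119, a microglia-specific surface protein, spread widely within both groups, at 3724, 865 and 3321 against 2358, 438 and 897 CPM (1.10, −0.30 to 2.50). Replicate 2 was the lowest library of each group for this gene. All 8 purinergic receptor and nucleotidase genes tested had a log2 fold change above 0, as did 49.2% of all genes, with a median of 0.46, or 0.26 without ABX replicate 3. Entpd1, the ectoenzyme CD39 that degrades extracellular ATP, was the one without overlap (477, 265 and 420 against 235, 210 and 151 CPM). That is 12.5% of the list, against 6.78% of all genes. With DESeq2's size factors 2 homeostatic genes were higher without overlap (9.09%, against 6.87% of all genes), and with GC offsets 1 (4.55%, against 6.53% of all genes).

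**Figure D5:**
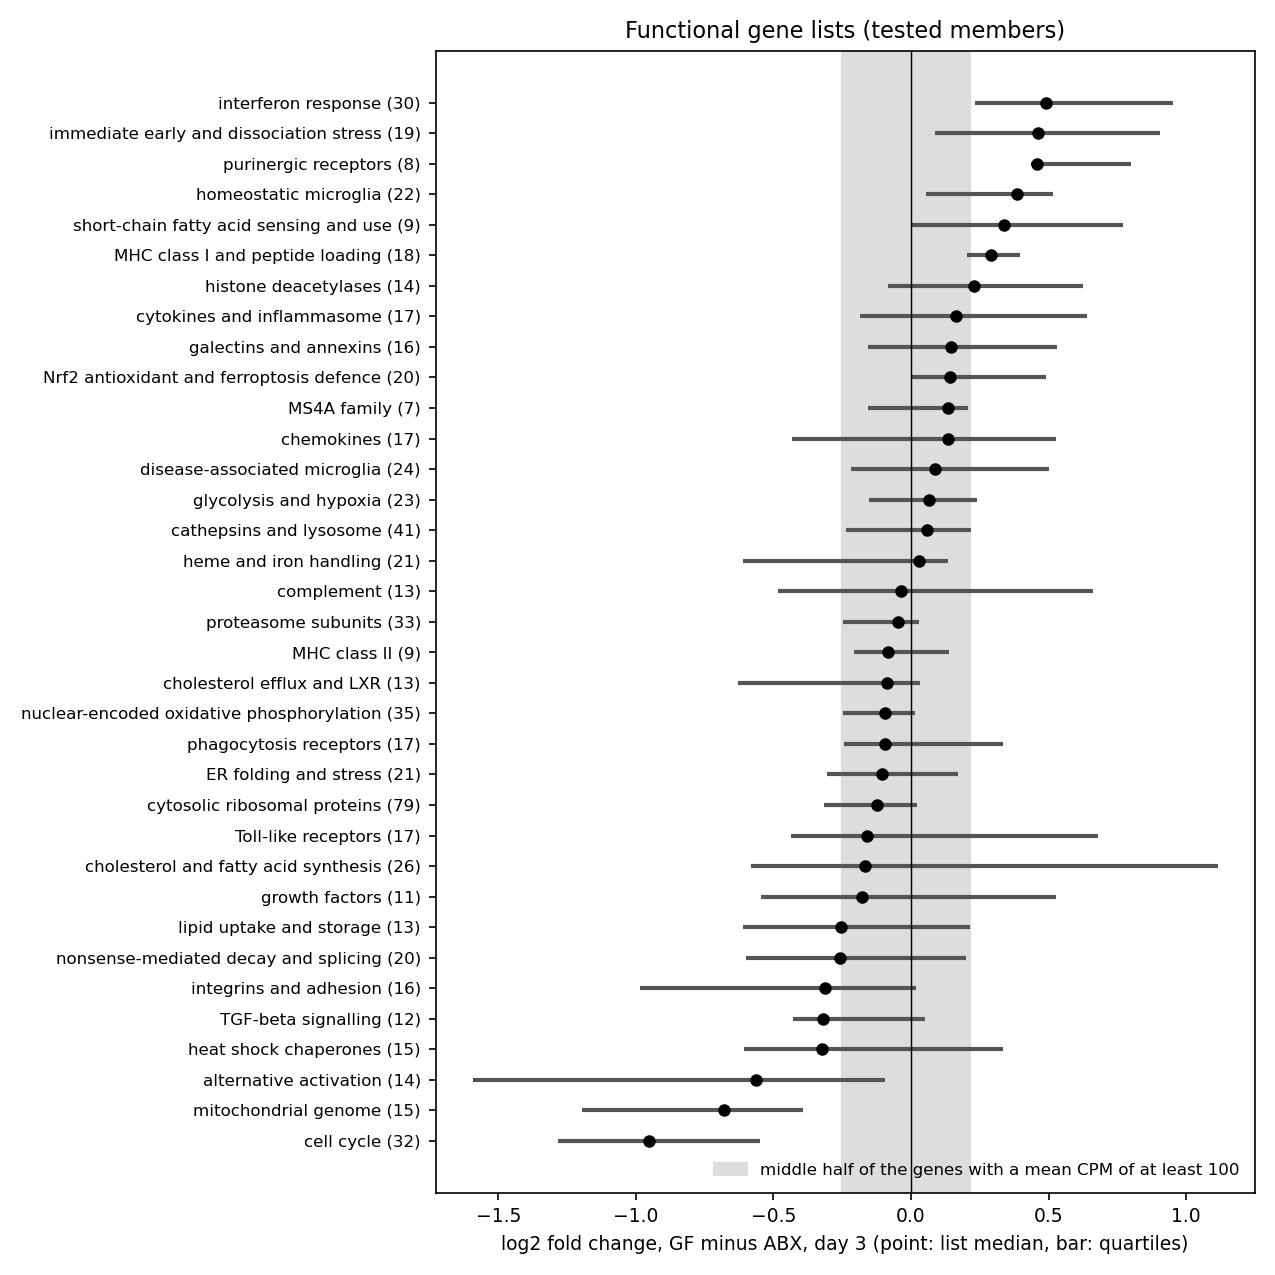
Median (point) and quartiles (bar) of the log2 fold change, GF minus ABX at day 3, over the tested members of each functional list, whose number stands in brackets; the grey band spans the quartiles of genes with a mean of at least 100 CPM. Cell cycle (−0.95) and mitochondrial genome (−0.68) lie lowest and interferon response (0.49), immediate early genes (0.46) and purinergic receptors (0.46) highest.

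The abundant genes without overlap that had the smallest unadjusted p in edgeR included several that are not on those lists. Ltc4s, leukotriene C4 synthase, which makes a lipid mediator and is expressed by microglia (chromosome 11, 50236461 to 50238616, minus strand), measured 1260, 502 and 1106 CPM in GF, 314, 493 and 389 in ABX (1.26 ± 0.44, edgeR unadjusted p = 0.00837). Crybb1, a crystallin that microglia express (chromosome 5, 112255815 to 112269585, plus strand), measured 607, 171 and 349 against 92.7, 88.5 and 146. Gpnmb, a glycoprotein of lysosomes in lipid-laden and damage-responding phagocytes (chromosome 6, 49036546 to 49070929, plus strand), measured 47.6, 146 and 72.6 CPM in GF, 10.9, 22.2 and 20.7 in ABX and 4.16, 16.2 and 5.76 in SPF (2.31, 95% interval −0.76 to 5.38). Dirc2, a lysosomal membrane transporter, measured 49.5, 28.7 and 63.6 against 25.2, 2.84 and 5.44. Ypel3 measured 484, 314 and 370 against 178, 220 and 191, the ubiquitin gene Ubb 3741, 2766 and 3352 against 2002, 2632 and 2037, and the Fc receptor Fcgr3 3583, 2619 and 3335 against 2543, 2271 and 1800. Ubb has close copies, between which the authors' counting could divide reads.

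On the lower side, outside the mitochondrial genome, stood Lars2, Qk, Rala and Stmn1. Lars2, the mitochondrial leucyl-tRNA synthetase, measured 19.1, 10.7 and 23 CPM in GF and 25.1, 87.3 and 167 in ABX. Qk, the RNA-binding protein quaking, measured 38.3, 34 and 48.6 against 72.5, 58 and 175, and the small GTPase Rala 86.4, 63 and 49.3 against 100, 195 and 127. ABX replicate 1 was again the ABX library nearest to GF for Lars2 and Rala.

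Interferon response genes were mostly higher in GF at low to moderate levels. Of 30 tested, 26 had a log2 fold change above 0 (49.2% of all genes tested did). Without overlap, 6 (20%, against 6.78% of all genes) were higher (Isg15, Oasl2, Oas2, Usp18, Ifitm3 and Xaf1) and 0 lower. With DESeq2's size factors 5 were higher (16.7%, against 6.87% of all genes) and 0 lower. With GC offsets 5 were higher (16.7%, against 6.53%) and 1 lower (3.33%, against 4.38%). The list's median was 0.49, or 0.75 without ABX replicate 1. Their summed level was 1523, 2041 and 2114 CPM in GF and 1383, 1465 and 1021 in ABX, but SPF spanned both, from 922 to 2996. Ifitm3, which blocks virus entry, measured 293, 520 and 556 against 159, 284 and 227 CPM (1.03, 95% interval −0.58 to 2.64). Oasl2, of the oligoadenylate synthetase family, measured 31.3, 89.1 and 37.6 against 23.7, 9.91 and 12.7. Oas2, of the same family, was at 2.14, 1.15 and 1.84 CPM in GF and at 0 in all ABX libraries, at least 42.8-fold higher.

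Immediate early genes, which respond within minutes to stimulation and also to cell isolation, overlapped in their summed level, at 2062 to 3373 CPM in GF and 1430 to 2524 in ABX. Of 19 tested, none passed the test. Without overlap, 5 (26.3%, against 6.78% of all genes) were higher (Egr2, Atf3, Ier2, Dusp1 and Btg2) and 0 lower. The list's median was 0.46, or 0.31 without GF replicate 1 and 0.81 without ABX replicate 1. Dusp1, a phosphatase that shuts down MAP kinases, measured 180, 146 and 202 CPM in GF and 73.6, 111 and 59.6 in ABX, and Btg2, an antiproliferative factor, 378, 238 and 322 against 182, 159 and 142. Jun overlapped, at 809, 256 and 971 against 412, 141 and 219. Heat shock chaperones as a list did not share this direction (median −0.33). Of 15 tested, Hspb1 was higher and Dnaja1 lower without overlap (6.67% each, against 6.78% and 4.26% of all genes). With DESeq2's size factors or GC offsets 3 were lower (20%, against 4.2% and 4.38% of all genes). With DESeq2's size factors 3 immediate early genes were higher without overlap (15.8%, against 6.87% of all genes). Whether these genes reflect handling of the tissue was not tested.

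Genes that mark damage-responding microglia did not separate the groups. Of 24 disease-associated genes, 1 (Gpnmb, 4.17% against 6.78% of all genes) was higher without overlap and 0 lower, with a median of 0.09. Apoe, the lipid carrier, measured 4274, 9126 and 8961 CPM in GF and 7067, 4881 and 9890 in ABX (0.03 ± 0.46, 95% interval −0.92 to 0.99). Spp1, osteopontin, measured 1532, 6467 and 3266 against 2313, 6155 and 2417 (0.05, −1.07 to 1.17). The spread within each group far exceeded the difference for both. Apoe did differ in sham, with 8090, 2945 and 2853 CPM in GF against 357, 459 and 451 in ABX (3.45 ± 0.51, edgeR adjusted p = 0.00951) and was the 1 gene called in that comparison (0.00569% higher, 0% lower, or 3.88% and 1.4% at an unadjusted p under 0.05). Its day 3 difference was lower than its sham difference (−3.42 ± 0.67, edgeR unadjusted p = 3.5e-05), which did not pass (adjusted p = 0.608). GF sham replicates 1 and 2 held 10325 and 11925 detected genes, against 14979 or more in each ABX sham library. Lgals3, galectin-3, measured 331, 802 and 605 against 180, 306 and 359 CPM (1.04, −0.82 to 2.90).

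Heme and iron genes were also close. Ftl1, the ferritin light chain, measured 26374, 26579 and 27783 CPM in GF and 20832, 26935 and 25375 in ABX (0.14, 95% interval −0.62 to 0.91), and Fth1, the heavy chain, differed by 0.14 (−0.51 to 0.79). Ftl1 has pseudogene copies, so its level is uncertain. Hmox1, heme oxygenase, which opens the heme ring and frees iron, measured 841, 1939 and 1109 against 1422, 1004 and 1279 (0.07, −2.18 to 2.32). The interval leaves room for differences of over 2 log2 units in either direction. Of 21 genes in the list, 1 (4.76%, against 6.78% of all genes) was higher without overlap. It was Tfrc, the transferrin receptor, at 2.46, 3.85 and 0.672 against 0, 0.057 and 0. Another 3 (14.3%, against 4.26% of all genes) were lower. These were Hpx, the heme carrier hemopexin, at 0 in all GF libraries and 7.74, 1.82 and 0.115 CPM in ABX, Ncoa4, which delivers ferritin for breakdown, at 119, 150 and 121 against 260, 183 and 152, and the heme-binding Hebp1, at 38.2, 64.4 and 60.4 against 68.7, 102 and 75.3.

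Inflammatory mediators gave no common direction. Il1b measured 6.18, 20.8 and 18 CPM in GF and 5.76, 20.8 and 54.3 in ABX (−0.85, 95% interval −4.28 to 2.58), and Tnf 7.56, 16.4 and 10.7 against 10.9, 19.4 and 22.5 (−0.60, −5.01 to 3.80). Il6, at 3.03, 1.25 and 2.95 against 0.09, 0.542 and 0, was the 1 of 17 cytokine genes without overlap (5.88%, against 6.78% of all genes). Of 17 chemokine genes, 2 (11.8%) were higher (Cxcl2 and Ccl8) and 1 (5.88%, against 4.26% of all genes) lower. The lower one was Cxcl16, at 177, 219 and 198 against 301, 328 and 285. With DESeq2's size factors or GC offsets these chemokine counts were 4 (23.5%, against 6.87% and 6.53% of all genes) and 2 (11.8%, against 4.2% and 4.38%). The list of alternative activation had a median of −0.56, or −0.34 without ABX replicate 3 and −0.89 without GF replicate 3, and its summed level overlapped. Of its 14 genes, 4 had a log2 fold change above 0 and 10 below. Chil3 was higher without overlap (7.14%, against 6.78% of all genes), and 2 genes (14.3%, against 4.26% of all genes) were lower. There Mrc1, the mannose receptor that marks border-associated macrophages, measured 2.54, 13.9 and 5.82 CPM in GF and 16.2, 19.4 and 37.1 in ABX, and Fn1, fibronectin, 0.0697, 10.5 and 13.3 against 34.8, 16.9 and 61.2. The summed level of 10 border-associated macrophage markers was also lower in GF without overlap, at 66.4 to 202 CPM against 210 to 393. The gap was narrow, and SPF spanned it, from 174 to 297 CPM. The members did not share a direction, with 4 log2 fold changes above 0 and 6 below. Only 1 was lower without overlap, Mrc1, which is itself a member. The part of these cells was not tested.

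Complement and antigen presentation were mixed. C1qa and C1qb, chains of the first complement component that microglia make in quantity, had differences of 0.66 (95% interval −0.14 to 1.45) and 0.70 (−0.01 to 1.41). C3ar1, the receptor for the C3a fragment, was lower without overlap, at 295, 359 and 389 CPM against 525, 529 and 404, though not with GC offsets. It was 1 of 13 complement genes so placed (7.69%, against 4.26% of all genes). C3 itself was at 0 in all GF libraries and at 11, 16 and 0 CPM in ABX. Of 18 genes of MHC class I and peptide loading, H2-T22 and H2-T23, non-classical class I genes, were higher without overlap (11.1%, against 6.78% of all genes). Nlrc5, the class I transactivator, was lower, at 1.41, 0.134 and 0.583 against 19.1, 9.39 and 6.26 CPM. That is 5.56% of the list, near the 4.26% of all genes. B2m differed by 0.31 (−0.25 to 0.86). Cd74, the invariant chain of class II, overlapped widely, at 196, 1398 and 1291 against 313, 877 and 1714 (−0.01, −1.62 to 1.60), and 0 of 9 class II genes were without overlap.

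Of the genes for sensing and uptake of bacterial short-chain fatty acids, Ffar2, Ffar3, Olfr78 and the transporter Slc5a8 were too low to be tested. Hcar2, a receptor for butyrate and ketone bodies, measured 55.3, 144 and 93.6 CPM in GF and 113, 108 and 28.4 in ABX (0.23, 95% interval −2.77 to 3.24). Of 9 genes tested for sensing and use, 2 (22.2%, against 6.78% of all genes) were higher without overlap. These were Acss1, the mitochondrial enzyme that activates acetate, at 54.6, 38.7 and 55.8 against 22.7, 21.8 and 10.3, and Crat, carnitine acetyltransferase, at 33, 32.3 and 52 against 32.2, 29.2 and 29.6. The gap for Crat was small, and with DESeq2's size factors or GC offsets 1 of the 9 was without overlap. Of 14 histone deacetylases, the enzymes that butyrate inhibits, 2 (14.3%) were higher without overlap (Hdac4 and Hdac11), both at low levels.

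Genes of protein folding, breakdown and synthesis had medians near 0. In the endoplasmic reticulum, the chaperones Calr (629, 613 and 653 CPM in GF, 825, 805 and 731 in ABX) and Canx (172, 173 and 180 against 244, 292 and 267) and the stress-induced factor Manf (278, 259 and 320 against 353, 519 and 454) were lower without overlap, 3 of 21 genes. That was 14.3%, where 4.26% of all genes and 7.49% of abundant genes were lower without overlap. The list's median was −0.11. Of 33 proteasome subunits, 3 were lower without overlap (Psma2, Psmb7 and Psmc3) and 0 higher, a share near the 7.49% of abundant genes, with a median of −0.05. The 79 cytosolic ribosomal protein genes had 0 without overlap in either direction and a median of −0.12. Without ABX replicate 2 the proteasome median was 0.07 and the ribosomal median 0.24. The endoplasmic reticulum median was −0.03 without that library and −0.20 without ABX replicate 3.

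The microglial label held in all 6 libraries, with Cx3cr1 at 2831 CPM or more and the 12 microglia markers summing to 28751 to 49751 CPM in GF and 22183 to 35679 in ABX. Among markers of other brain cells, the 8 astrocyte genes summed to 118 to 165 CPM in GF and 80.4 to 112 in ABX, and the 4 neuron genes to 2.72 to 3.19 against 0 to 1.24, both sums without overlap. The astrocyte genes did not share a direction: 4 had a log2 fold change above 0 and 4 below, and 0 of 8 were without overlap. The astrocyte sum was mostly Slc1a3, a glutamate transporter, at 131, 65.9 and 113 CPM in GF and 80.2, 42.8 and 41.3 in ABX. The sums of oligodendrocyte (137 to 262 against 142 to 216 CPM), endothelial (11.6 to 16.4 against 1.21 to 14.9), erythroid (163 to 658 against 92.8 to 217) and choroid plexus markers (774 to 3263 against 552 to 3112) overlapped. Mal, a myelin protein, measured 4.6, 2.79 and 2.63 CPM in GF and 0 in all ABX libraries (at least 83.7-fold higher), and the endothelial receptor Flt1 1.97, 4.49 and 0.53 against 0 (at least 58.3-fold). Hba-a1, an alpha globin with a near-identical copy, was at 306, 273 and 67.4 against 43.3, 92 and 71.2 CPM, which overlapped. The part of such traces of other cells in the differences above was not tested.

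The GF minus ABX difference at day 3 was also set against that at day 7. In edgeR 407 genes (2.32%) had a higher and 23 (0.131%) a lower difference at day 3 than at day 7, past an adjusted p of 0.05. The median difference of the 407 was 0.22 at day 3 and −9.48 at day 7, and in 96 of them (23.6%) all GF libraries at day 7 were at 0. The 3 GF libraries of day 7 held 9185 to 11043 detected genes, fewer than any library at day 3. Cx3cr1 is an example: it differed by 0.49 ± 0.44 at day 3 and by −1.99 ± 0.46 at day 7, where GF measured 840, 474 and 217 CPM and ABX 3681, 1117 and 1287 (interaction 2.48 ± 0.63, edgeR adjusted p = 0.0364). At day 7 itself edgeR called 149 genes higher (0.848%) and 1023 lower (5.82%) in GF, and 7.24% and 16.9% at an unadjusted p under 0.05. The number of calls for the interaction varied with the tool and the fit: 2869 higher (18.4%) and 927 lower (5.93%) with DESeq2, 36 (0.205%) and 1 (0.00569%) with limma voom, and 1 (0.007%) and 0 (0%) in edgeR with only the 4 groups concerned. Without ABX replicate 2 of day 3 it was 26 higher and 0 lower, and without GF replicate 2 of day 7 it was 776 higher. The library measures cannot be told apart from condition and day in it.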

How the data were processed

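RNA of sorted mouse microglia was measured in 27 libraries, 3 in each of 9 groups, and 6 libraries enter the comparison. The authors deposited a table of counts per gene, whole numbers per the file headers and values. Per the submitters' processing notes, cutadapt 1.9, HISAT2 2.0.4, StringTie 1.3.4d, edgeR and the mm10 build were used. The annotation release, the strand setting and the treatment of PCR duplicates are not given in the sources used here, so reads of overlapping or near-identical genes may be shared. Symbols and coordinates come from GENCODE M21 on GRCm38, which matched 52073 of 56691 identifiers, and the other 4618 hold 1.27% of counts. Every row has an identifier.

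Groups come from the labels. With edgeR's filterByExpr rule 17573 genes were tested, TMM factors of the 6 libraries were 1.03 to 1.25, and 1 quasi-likelihood fit (edgeR 4.0.16, R 4.3.3) over all 9 group means gave the difference at day 3 and its interactions with the sham and day 7 differences. P-values were adjusted by the Benjamini-Hochberg method over all genes tested, with a threshold of 0.05. The common biological coefficient of variation was 1.54 over the 27 libraries and 1.04 over the 6, where the filter kept 13654 genes. The 6 libraries held 52702474 or more counts each, and 6566 of the genes tested (37.4%) had 0 counts in at least 1 of them. A group at 0 was given a bound with 3 counts per library. The fit was checked on simulated counts, with success required only at a spread far below that of these libraries. Power at the spread seen here was not established by that check.

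Lists were described by counts and medians, with no set test. The members and lists were chosen with earlier results of these data known. Named genes are up to 10 per direction with the largest difference, a mean log2 CPM of at least 4 (prior count 2) and no overlap, the 2 members of each list with the smallest p, and a fixed set of microglial, iron, cytokine and fatty acid receptor genes. Other list members named as without overlap, and the granulocyte genes, were chosen after their values were seen. Alternatives were DESeq2 1.42.0, limma voom 3.58.1 with quality weights, DESeq2 size factors, other filters (none, or a mean of at least 100 CPM), only the groups compared, no libraries under 12000 detected genes, a replicate block, GC offsets, and leaving out each library. For the counts of list members without overlap, alternatives were chosen after seeing the data. A gene that the rule names is not reported here.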

Additional observations from a re-analysis of the deposited data

Results flagged for a closer look

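The GF minus ABX difference departed between day 3 and day 7 in edgeR for 407 genes with a higher and 23 with a lower difference at day 3 (adjusted p under 0.05). Among genes named in the text, the interaction, day 3 minus day 7, was 2.33 for C1qa (edgeR adjusted p = 0.0272), 1.38 for Cst3 (0.043), 2.48 for Cx3cr1 (0.0364), 10.11 for Dirc2 (0.00647), 2.07 for Ftl1 (0.038) and 2.54 for Hexa (0.0178), all on the log2 scale. Hexa, a subunit of a lysosomal hexosaminidase, measured 2658, 1347 and 2135 CPM in GF and 1896, 963 and 945 in ABX at day 3, and 487, 323 and 399 against 2012, 1153 and 1177 at day 7. Dirc2 measured 0.168, 0.47 and 0.168 CPM in GF at day 7 and 0.664, 94 and 117 in ABX. Hspb1, a small heat shock protein, has a fitted interaction of 20.93 (edgeR adjusted p = 0.0398), which is no measure of size because all GF libraries at day 7 were at 0. All 3 GF libraries and ABX replicates 1 and 2 at day 7 held fewer than 12000 detected genes, and the part of library quality in these differences was not tested. Ftl1 measured 4743, 2820 and 4567 CPM in GF at day 7 and 21028, 6242 and 19003 in ABX, where at day 3 the groups overlapped. Cst3, an inhibitor of cysteine proteases, measured 22953, 22688 and 19268 CPM in GF at day 7 and 44792, 22946 and 27283 in ABX.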

How the results depend on the processing

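At day 3 edgeR called 0 genes in each direction with every alternative that kept its quasi-likelihood test, while DESeq2 called 556 higher and 111 lower (814 and 171 at an unadjusted p under 0.05) and limma voom 173 and 15. For the interaction with sham the numbers were 423 and 202 with DESeq2 and 3 and 1 with limma voom, and 0 to 12 higher and 0 to 1 lower when single libraries were left out (most without GF sham replicate 3). For the interaction with day 7, 407 higher and 23 lower became 2869 and 927 with DESeq2, 36 and 1 with limma voom, 48 and 7 among genes of at least 100 CPM, 1 and 0 with only the groups compared, and 26 to 776 and 0 to 145 when single libraries were left out; it was 26 and 0 without ABX replicate 2 of day 3, while 776 higher came without GF replicate 2 and 145 lower without ABX replicate 3 of day 7. The lower count was 14 without a filter and 13 with GC offsets. Without the libraries under 12000 detected genes this interaction could not be fitted, since all GF libraries of day 7 are among them. The cause of these changes was not tested.

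The labels number replicates alike in each group without saying that a number pairs libraries. Same-numbered GF and ABX libraries at day 3 deviated together with correlations of 0.011, 0.061 and 0.047. A replicate block gave 0 and 0 calls at day 3 (548 and 101 at an unadjusted p under 0.05), and for the interaction with day 7 it gave 219 higher and 11 lower, or 139 and 2 with GC offsets added. With the block Hmox1 was −0.076 and Cd74 0.10.

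Of 1848 alternatives for 120 named genes, 1791 kept direction and side, 19 brought a call (15 genes, in DESeq2 or limma voom) and 38 changed sign, in 17 genes with small or sparse differences. Apoe was −0.10 with limma voom, −0.18 with GC offsets and −0.20 with the block and offsets, Spp1 −0.18 with limma voom, Ftl1 −0.12 with GC offsets and −0.12 with the block added, and Hmox1 −0.15, −0.011 and −0.18 in the same order. Cd74 was 0.008 with DESeq2 and with its size factors, 0.009 without libraries under 12000 detected genes and 0.003 with only the groups compared. Leaving out single libraries gave −0.19 to 0.32 for Apoe, −0.60 to 0.67 for Spp1, −0.067 to 0.42 for Fth1, −0.34 to 0.30 for Hmox1, −1.33 to 0.17 for Il1b, −0.43 to 0.69 for Cd74, −0.18 to 0.52 for Hcar2, −8.54 to 0 for Retnla, −1.08 to 0.21 for H2-Eb1, −8.97 to 4.09 for Scd1, −0.12 to 7.25 for Vldlr, 0 to 7.94 for Cd163, −5.69 to 9.82 for Lyve1, −7.85 to 5.16 for Clec9a, −1.23 to 0.078 for Cd209a and −0.047 to 1.59 for Ttr.

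List medians ran from −1.17 to −0.75 for cell cycle and from −0.78 to −0.63 for the mitochondrial genome when single libraries were left out, from 0.66 to 2.00 for monocyte markers (lowest without GF replicate 2) and from 0.26 to 0.67 for purinergic receptors. Of 49 list medians, 25 changed sign in at least 1 alternative; those of the neutrophil, cell cycle, mitochondrial, interferon, homeostatic, immediate early and purinergic lists did not.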
